A study of Mus musculus with 2 samples.

Results

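In neonatal mouse ovary, 333 of 4819 barcodes in the library labelled DEHP_MLT and 70 of 5277 barcodes in the library labelled MLT carried the transcripts of oocytes with low levels of zona and growth genes. A barcode is the sequence tag of 1 droplet, taken as 1 cell, and a UMI (unique molecular identifier) is 1 counted RNA molecule. The cells were selected on their own counts, scaled to UMIs per 10000 of the barcode's total, among barcodes with at least 5000 UMIs. The first conditions kept oocytes: Dazl, Sycp3 and Figla summed to at least 10, the granulosa genes Foxl2 and Kctd14 to below 2, and Tsga8 and Tex101, marks of another germ cell state here, to below 3. A last condition put the sum of Zp3, Npm2 and Gdf9 below 6. Oocytes that met the first conditions and reached 6 or more on that sum are called growth-high oocytes below, and there were 115 and 45 of them in the libraries labelled DEHP_MLT and MLT.

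Each library, 1 per treatment group, was made with the 10x Genomics 3′ assay from ovaries of C57BL pups at postnatal day 3. In the DEHP_MLT group, mothers were given the plasticizer DEHP by daily gavage and melatonin (MLT) later in the day, from E16.5 (a day of gestation) to postnatal day 3. In the MLT group, mothers received DMSO instead of DEHP, and the same melatonin. Melatonin was therefore common to both groups, the difference between them is DEHP, and how many pups or ovaries were pooled is not stated. The sample titles and the names of the attached tables contradict each other: each of the 2 samples holds a table named after the other group. The titles were followed, as the samples' group field does, and every difference between the libraries given here would change sign under the other reading.

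Oocytes of the newborn mouse ovary pass the pachytene stage of the first meiotic prophase and arrest at its diplotene stage. They become enclosed singly by flattened granulosa cells as primordial follicles. Figla, Nobox, Lhx8 and Sohlh1 encode transcription factors of this stage, and FIGLA is known to be needed for the genes of the zona pellucida, the glycoprotein coat of the egg. Most of these oocytes then stay dormant, while some grow and accumulate zona proteins (Zp1, Zp2, Zp3), the growth factor GDF9, the histone chaperone NPM2 and maternal proteins such as OOEP, NLRP5 and PADI6, which the early embryo uses. Low levels of these transcripts are thus found both in resting oocytes and in oocytes that have only just reached that arrest.

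FIGLA acts as a dimer on the E-box, the hexamer CANNTG, which reads the same on both strands. Promoters are shown for Zp3, part of the sum that set the cells apart, and for Ooep, Padi6 and Elobl, which were lower with it than in growth-high oocytes. The promoters of Zp1 and Zp2 were not used here. Each run holds the 250 bases before the transcript start in RefSeq on GRCm38.p6, 5′ to 3′ on the gene's strand, with every CANNTG in capitals. They are Zp3 at chr5:135979855-135980104 (plus strand), Ooep at chr9:78378589-78378838 (minus), Padi6 at chr4:140742644-140742893 (minus) and Elobl at chr11:88966932-88967181 (minus).
Zp3: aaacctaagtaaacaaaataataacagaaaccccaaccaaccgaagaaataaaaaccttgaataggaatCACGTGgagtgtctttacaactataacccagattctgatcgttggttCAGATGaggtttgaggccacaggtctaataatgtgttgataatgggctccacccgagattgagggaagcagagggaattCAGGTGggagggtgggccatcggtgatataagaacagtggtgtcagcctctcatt
Ooep: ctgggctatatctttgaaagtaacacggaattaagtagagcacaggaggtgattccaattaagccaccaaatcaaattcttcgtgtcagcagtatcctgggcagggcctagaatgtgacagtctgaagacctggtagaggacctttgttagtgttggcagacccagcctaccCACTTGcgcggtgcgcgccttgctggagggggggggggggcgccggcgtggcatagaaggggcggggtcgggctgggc
Padi6: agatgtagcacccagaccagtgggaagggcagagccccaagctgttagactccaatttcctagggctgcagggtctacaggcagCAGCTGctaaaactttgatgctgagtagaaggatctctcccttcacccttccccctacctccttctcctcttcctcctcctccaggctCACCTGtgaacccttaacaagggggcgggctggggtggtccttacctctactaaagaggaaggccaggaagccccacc
Elobl: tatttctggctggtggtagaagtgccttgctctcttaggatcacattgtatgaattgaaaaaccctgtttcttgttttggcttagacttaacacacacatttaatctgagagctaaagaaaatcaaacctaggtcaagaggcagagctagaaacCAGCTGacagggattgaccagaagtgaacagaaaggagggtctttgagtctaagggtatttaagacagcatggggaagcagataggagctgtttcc
The Zp3 run held 3 CANNTG, the Padi6 run 2, and the Ooep and Elobl runs 1 each. A CANNTG is common: 66.2% of 32851 RefSeq promoter windows of that length held at least 1, 19.6% held exactly 2 and 8.38% exactly 3. The closest CANNTG to the start began 55 bases before it in Zp3, 78 in Ooep, 78 in Padi6 and 96 in Elobl. The Ooep run also held the homeobox core TAATTG, searched on both strands and found in 7.17% of the windows. These matches describe the letters of the windows and say nothing of binding in these cells.

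The selected barcodes were deep. Their median was 81647 UMIs (range 7090 to 163751) in the library labelled DEHP_MLT and 81538 UMIs (range 5843 to 162863) in the library labelled MLT. Barcodes under the germ threshold had medians of 12108 and 11801 UMIs. Summed over the cells, 24860446 and 5002932 UMIs stood behind the values below, which are given as CPM, UMIs scaled to 1000000 of the cells' summed UMIs. The Poisson and binomial intervals are exact, at 95%, and measure only the error of counting. There is 1 library per group, so nothing measures the spread between animals, no test was made between the libraries, and a difference is described by its size. Mitochondrial UMIs were a median 5.42% of a cell's total in the library labelled DEHP_MLT and 4.94% in the library labelled MLT. The libraries shared 4 barcode sequences in all and 0 among the selected cells.

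Germ cell identity was clear in both libraries. Ddx4, a germ cell RNA helicase that the selection did not use, had 88.7 CPM (85 to 92.4) in the library labelled DEHP_MLT and 125 CPM (115 to 135) in the library labelled MLT. In barcodes under the germ threshold it had 6.43 and 7.48 CPM. With each cell thinned to 5000 UMIs, 33.6% and 51.4% of the selected cells held a Ddx4 UMI, against 2.83% and 3.66% of the barcodes under the germ threshold, which is the background of free RNA and other cells. Dazl, an RNA-binding protein of germ cells, had 483 and 501 CPM, Sycp3, a protein of the axis of meiotic chromosomes, 857 and 1068 CPM, and Figla 788 and 690 CPM, all 3 fixed high by the selection.

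Markers of other cell types were low. As a share of their level in all remaining barcodes of the same library, granulosa markers stood at 6.79% and 6.07%, stroma markers at 6.16% and 6.05%, perivascular markers at 5.94% and 5.67%, surface epithelium markers at 10.7% and 7.64%, and endothelial markers at 11.8% and 14%, in the libraries labelled DEHP_MLT and MLT. Immune markers stood at 19.0% and 8.52%. Their sum in the cells was level, at 22.6 and 22.6 CPM, while in the remaining barcodes it was 118 and 265 CPM. Erythroid markers summed to 7554 CPM in the cells of the library labelled DEHP_MLT and to 322 CPM in those of the library labelled MLT. Single cells lay between 3109 and 213831 CPM in the library labelled DEHP_MLT and between 132 and 975 CPM in the library labelled MLT, with no overlap. Of the 7 erythroid genes, 2 were at 0 in the cells of the library labelled MLT. Neutrophil markers summed to 119 and 12.8 CPM, with 2 of their 5 genes at 0 in the library labelled MLT. What part these foreign transcripts have in the differences between the libraries was not tested.

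The selected cells were 6.91% (exact binomial 95% interval 6.21% to 7.66%) of the barcodes with at least 5000 UMIs in the library labelled DEHP_MLT and 1.6% (1.25% to 2.02%) in the library labelled MLT, a log2 ratio of 2.11. Among barcodes with at least 30000 UMIs, the shares were 26.1% and 10.3%, a log2 ratio of 1.34. Among barcodes that met the germ threshold alone, low-growth oocytes made up 46.2% (42.5% to 49.9%) and 45.2% (37.2% to 53.3%), with overlapping intervals, so the larger share went with more germ barcodes of all kinds. Growth-high oocytes made up 16.0% and 29.0% of the same barcodes. Barcodes with Tsga8 or Tex101 made up 8.18% and 3.23%, and those with granulosa transcripts beside the germ transcripts 29.7% and 22.6%. Of the low-growth and growth-high oocytes together, the low-growth ones were 74.3% (70.0% to 78.3%) in the library labelled DEHP_MLT and 60.9% (51.3% to 69.8%) in the library labelled MLT. How dissociation and loading shaped these shares in 2 single preparations cannot be told apart from treatment.

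**Figure D1:**
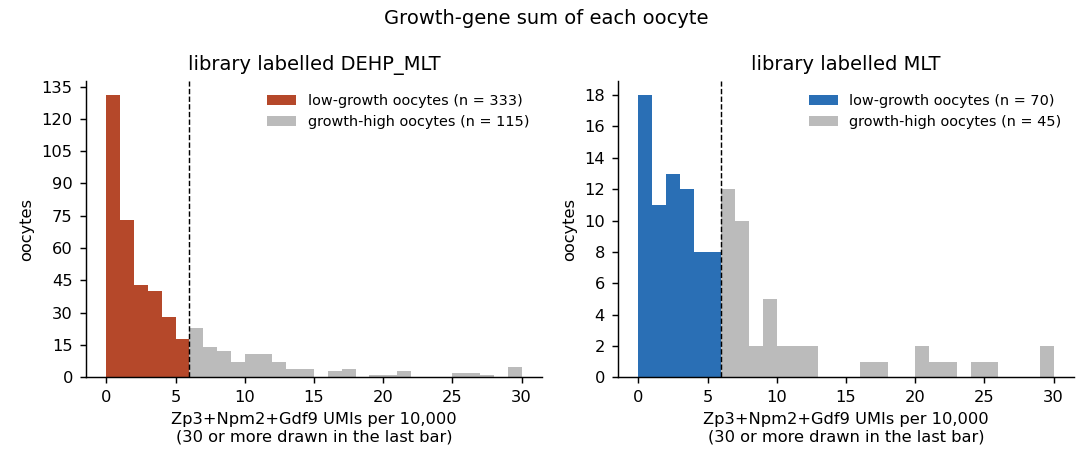
Number of oocytes by the sum of Zp3, Npm2 and Gdf9 per 10000 UMIs, in bars 1 unit wide, with the library labelled DEHP_MLT left of the library labelled MLT; coloured bars are low-growth oocytes, grey bars growth-high ones, and the dashed line marks the threshold of 6. The low-growth cells fill the whole range below the line and the first growth-high bars, with 23 and 12 cells, continue it.

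The plot of the zona and growth gene sum in each cell shows that the threshold cuts a continuous range. The sum had a median of 1.39 (interquartile range 0.515 to 3.09) per 10000 UMIs in the cells of the library labelled DEHP_MLT and 2.33 (0.919 to 3.82) in those of the library labelled MLT. It was 0 in 26 and 6 cells, below 1 in 131 cells (39.3%) and 18 cells (25.7%), and 4 or more in 46 cells (13.8%) and 16 cells (22.9%). Just inside the threshold, 18 and 8 cells had a sum between 5 and 6, and just outside it 23 and 12 cells had a sum between 6 and 7. By gene, Zp3 had 102 and 130 CPM in the low-growth oocytes, against 665 and 547 CPM in the growth-high ones. Npm2 had 12.6 and 12.4 CPM, against 167 and 163 CPM, and Gdf9 82.2 and 109.5 CPM, against 298 and 311 CPM. These 3 genes chose the cells, and their values describe that choice.

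**Figure D2:**
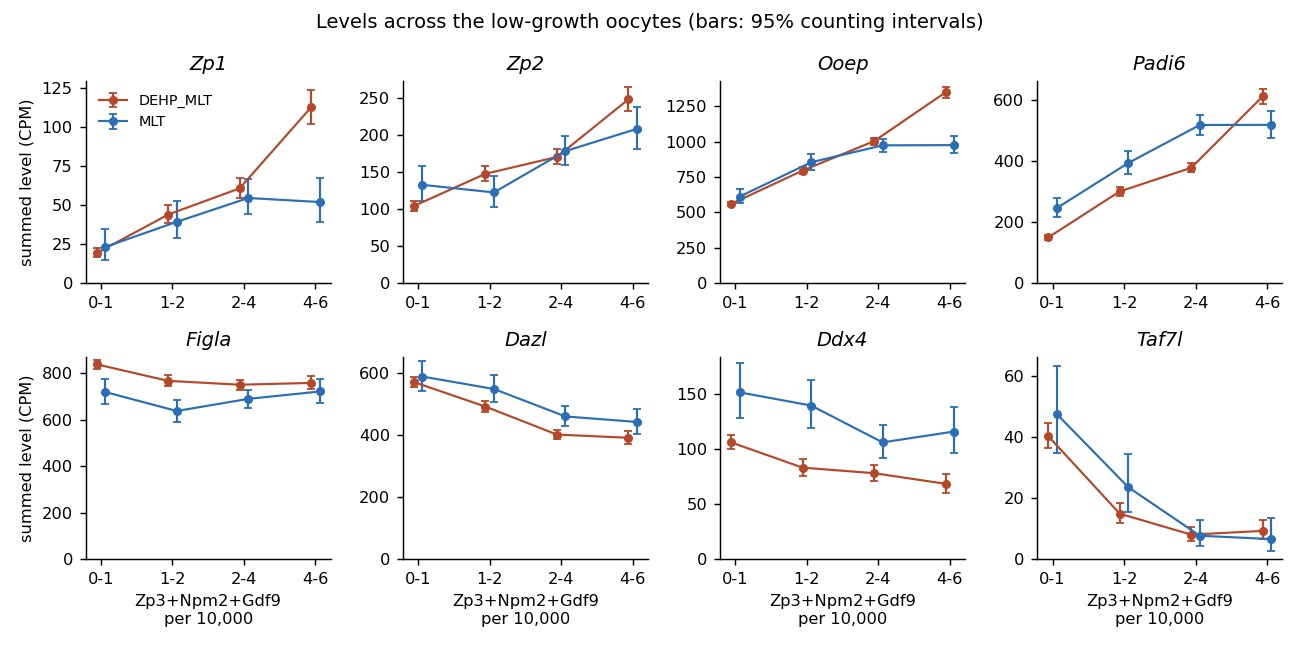
Level (CPM of summed UMIs, linear axes from 0) of 8 genes outside the zona and growth sum in low-growth oocytes, grouped by that sum (0 to 1, 1 to 2, 2 to 4 and 4 to 6 per 10000 UMIs), for the libraries labelled DEHP_MLT (red) and MLT (blue); bars are exact Poisson 95% intervals. Zp1, Zp2, Ooep and Padi6 are higher in the last step than in the first, Figla stays nearly level, and Dazl, Ddx4 and Taf7l are lower.

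Within the low-growth oocytes, other genes of the egg coat and of maternal stores were higher where the Zp3, Npm2 and Gdf9 sum was higher, as the plot of gene levels by that sum shows. The cells were divided at sums of 1, 2 and 4, which gave 131, 73, 83 and 46 cells in the library labelled DEHP_MLT and 18, 11, 25 and 16 in the library labelled MLT. Zp1, which cross-links zona filaments, had 19.4, 44.0, 60.8 and 113 CPM from the lowest to the highest sum in the library labelled DEHP_MLT. The corresponding Zp1 values in the library labelled MLT were 23.3, 39.4, 54.6 and 52.0 CPM. The gradient of Zp1 was thus longer in the library with more cells, and level between the last 2 steps in the other.

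Zp2, the zona protein that sperm bind, had 104, 147, 170.1 and 248 CPM along the same steps in the library labelled DEHP_MLT and 133, 122, 178 and 208 CPM in the library labelled MLT. Ooep, a subunit of the subcortical maternal complex, had 559.9, 795, 1002 and 1347 CPM in the library labelled DEHP_MLT and 612, 853, 973 and 975 CPM in the library labelled MLT. Padi6, a component of the cytoplasmic lattices of the egg, had 150.1, 300.4, 378 and 611 CPM, against 246, 394, 518 and 518 CPM. All 3 were higher in the highest than in the lowest step in both libraries. H1foo, the oocyte linker histone, had 34.3, 52.0, 78.2 and 115 CPM, against 47.6, 44.6, 102 and 137 CPM, and Nlrp14 had 14.9, 23.2, 48.6 and 72.1 CPM, against 33.4, 43.7, 38 and 85.1 CPM.

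Not every maternal gene followed. Nlrp5, another subunit of the subcortical maternal complex, had 307, 373, 392 and 387 CPM in the library labelled DEHP_MLT and 260.3, 381, 197 and 342 CPM in the library labelled MLT, without a steady order. Dppa3, a maternal factor that protects DNA methylation in the zygote, had 1944, 2296, 2409 and 2504 CPM, against 2148, 2349, 2474 and 2402 CPM. Between the first and the last step, Dppa3 thus differed by a smaller ratio than Zp1, Zp2, Ooep or Padi6 in both libraries.

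The transcription factors of the early oocyte hardly moved along the same steps. Figla had 838, 767, 750 and 758 CPM in the library labelled DEHP_MLT and 719, 637, 690 and 721 CPM in the library labelled MLT. Nobox had 270.3, 287, 274 and 298 CPM, against 212, 239, 273 and 262 CPM, and Lhx8 had 321, 314, 299 and 294 CPM, against 289.6, 308, 265 and 279.8 CPM. Foxo3, the factor that holds primordial oocytes dormant, had 100.2, 108, 89.7 and 97.2 CPM, against 93.2, 90.1, 82.1 and 89.8 CPM. Figla is one of the genes that chose the cells, so a low level of it was not open to them.

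A few germ cell and meiotic transcripts, picked with their values known, were lower in the last step than in the first. Taf7l, a germ cell variant of a general transcription factor subunit, had 40.4, 15, 8.08 and 9.32 CPM along the steps in the library labelled DEHP_MLT and 47.6, 23.6, 7.72 and 6.62 CPM in the library labelled MLT. Syce3, a protein of the synaptonemal complex that joins paired chromosomes, had 99.4, 78.1, 74.2 and 56.2 CPM, against 104, 48.1, 37.5 and 60.5 CPM, where the last step was above the step before it. Ddx4 had 106, 83.4, 78.4 and 68.7 CPM, against 152, 139.9, 106 and 116 CPM. Sycp3, held high by the selection, differed little, with 871, 895, 847 and 781 CPM, against 1203, 1020.5, 1073 and 985 CPM. Tsga8, whose upper limit the selection set, had 45.6, 28.3, 17.3 and 9.32 CPM in the library labelled DEHP_MLT and 72.9, 42.8, 8.82 and 29.3 CPM in the library labelled MLT. The cells with the lowest zona and growth sum therefore had the highest levels of Taf7l and Tsga8 in both libraries.

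Set against the growth-high oocytes, 15 of 3428 genes with at least 50 CPM were at least 1.5-fold higher in the low-growth oocytes of both libraries, and 58 were at least 1.5-fold lower. These are 0.438% and 1.69% of the genes compared. The contrast is the one that chose the cells, so these counts describe the choice. Growth-high oocytes were also shallower, with medians of 49176 and 35772 UMIs in the libraries labelled DEHP_MLT and MLT, against 81647 and 81538 UMIs. What part depth has in the contrast was not tested. The median log2 ratio over all genes was 0.02 in the library labelled DEHP_MLT and 0.05 in the library labelled MLT. Uchl1, an abundant ubiquitin hydrolase of germ cells and neurons, had log2 ratios of -0.01 and -0.00.

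The 58 genes lower in the low-growth oocytes included the 3 zona and growth genes of the selection, 8 of the list of other zona and growth products and 4 Oas1 genes. Elobl had 5.83 CPM in the low-growth oocytes of the library labelled DEHP_MLT, against 70.4 CPM in its growth-high oocytes, and 11.0 against 131 CPM in the library labelled MLT, with log2 ratios of -3.39 and -3.46. Nlrp14 had 33.8 against 150.5 CPM and 48.4 against 222 CPM. Zp1 had 49.2 against 172 CPM and 44.4 against 126 CPM. Of the 14 genes compared from the list of other zona and growth products, 8 were at least 1.5-fold lower in both libraries and 0 higher, with list medians of -1.19 and -0.98. Zp2 (-1.33 and -0.96), Ooep (-1.06 and -1.29), Padi6 (-1.41 and -1.0), Khdc3 (-1.87 and -1.19) and H1foo (-1.39 and -1.10) were among them, and Tle6, which joins OOEP and NLRP5 in the subcortical maternal complex, was not, at -0.19 and -0.20.

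A family of the 2′-5′ oligoadenylate synthetases, whose members at this locus are transcribed in the mouse oocyte, was low with them. All 4 Oas1 genes compared were at least 1.5-fold lower than in growth-high oocytes in both libraries, with medians of -1.38 and -0.96. Oas1c had 69.8 against 286 CPM in the library labelled DEHP_MLT and 129 against 339.9 CPM in the library labelled MLT, and Oas1d 82.6 against 229.8 CPM and 109 against 248 CPM. The family lies in 1 cluster of similar genes, and reads could be split among them. Khdc1b (-2.06 and -1.36), the kinase gene Map3k6 (-1.53 and -1.33) and the membrane protein gene Smagp (-1.37 and -1.10) complete the 10 genes with the lowest ratios.

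Higher in the low-growth oocytes were few genes and by less. Mageb4, an X-linked cancer-testis antigen gene, had 106 against 52.9 CPM in the library labelled DEHP_MLT and 88.3 against 43.2 CPM in the library labelled MLT. Tex15, needed for meiotic recombination and transposon silencing in mouse germ cells, had 455 against 284 CPM and 703 against 455 CPM. Prdx4, a peroxiredoxin of the endoplasmic reticulum, had 342 against 222 CPM and 213 against 135 CPM. Hes1 (1.17 and 0.67), a target of Notch signalling, Cspp1 (0.66 and 0.75), Tspan3 (0.64 and 0.71), Kin (0.62 and 0.64), Cetn4 (0.60 and 0.89), Rbakdn (0.60 and 0.86) and Hnrnpdl (0.59 and 0.64) were also past 1.5-fold in both.

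Most other gene lists held no gene past 1.5-fold between the 2 oocyte classes. Over all genes compared, 0.438% were higher and 1.69% lower, so counts of 0 in lists of this size are near that background. No gene was past 1.5-fold in both libraries among 8 oocyte transcription factors (medians -0.04 and -0.02), 6 synaptonemal complex genes (0.32 and 0.08), 11 piRNA pathway genes (0.13 and 0.20) or 9 genes of oocyte dormancy (-0.01 and 0.10). The same was so of 8 glycolysis genes (-0.20 and -0.26), 4 DNA methylation genes (-0.33 and -0.47), 9 autophagy genes (0.04 and 0.04) and 10 mitosis genes (-0.06 and -0.13). Tex15 was the only 1 of 5 genes in the meiotic cohesin and recombination list past that fold. Dppa5a, a pluripotency-associated RNA-binding protein gene, was 1 of 2 compared in its list that were lower, with 141 against 297 CPM and 152 against 325 CPM. Of 13 antioxidant genes, Prdx4 was higher and Prdx2 lower (-0.83 and -0.98).

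Germ cells with Tsga8 or Tex101 transcripts numbered 59 and 5, and the low-growth oocytes differed from them in both libraries by another set of genes. Taf7l had 22.0 CPM in the low-growth oocytes against 257 CPM in the Tsga8 or Tex101 germ cells of the library labelled DEHP_MLT, and 19.0 against 250.1 CPM in the library labelled MLT (log2 -3.48 and -3.65). Topaz1 (-2.25 and -1.97), which is needed for meiosis in mouse testis, Tktl1 (-2.09 and -3.00), Pet2 (-1.78 and -2.33), Tsc22d3 (-1.78 and -1.80) and Fmr1nb (-1.71 and -2.80) were lower too. The values of the library labelled MLT rest on 5 cells.

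Oas1 genes were higher in the low-growth oocytes than in those germ cells. Oas1c had 69.8 against 11.5 CPM in the library labelled DEHP_MLT and 129 against 7.81 CPM in the library labelled MLT, and Oas1h 158 against 36.5 CPM and 167 against 23.4 CPM. Cox4i2, an isoform of a cytochrome c oxidase subunit, had 195 against 36.5 CPM and 153 against 46.9 CPM, and Fetub, whose secreted product keeps the zona from hardening early, 114 against 33.2 CPM and 105 against 31.3 CPM. In Oas1c, the low-growth oocytes thus lay between the Tsga8 or Tex101 germ cells and the growth-high oocytes in both libraries.

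No gene passed the rule of at least 8-fold over all remaining barcodes in both libraries, since those include other oocytes. Against the barcodes under the germ threshold, a comparison chosen after the values were seen, 120 genes were at least 8-fold higher in both. That count covers genes with at least 50 CPM in the low-growth oocytes of both libraries. It leaves out unnamed gene models and the haemoglobin, ribosomal protein and mitochondrial genes. Uchl1 had 3874 CPM in the low-growth oocytes of the library labelled DEHP_MLT, against 278 CPM under the germ threshold, and 3120 against 178 CPM in the library labelled MLT. Dppa3 had 2222 against 156 CPM and 2366 against 124 CPM, and Gtsf1, a zinc-finger protein of the piRNA pathway, 1030.2 against 67.9 CPM and 978 against 41.6 CPM. Smc1b, the meiotic cohesin, was 18.9-fold and 23.3-fold higher, and Ttn, the gene of the giant muscle protein titin, 26.8-fold and 17.2-fold. Uchl1, Dppa3, Gtsf1 and Smc1b were not particular to the low-growth oocytes. Growth-high oocytes had 3913 and 3122 CPM of Uchl1 and 2829 and 2694 CPM of Dppa3. They had 1203 and 1088 CPM of Gtsf1 and 734 and 867 CPM of Smc1b. Ttn had 533 and 747 CPM in the low-growth oocytes and 334 and 612 CPM in the growth-high ones. In the Tsga8 or Tex101 germ cells it had 271 and 1328 CPM.

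Among cells thinned to 5000 UMIs, mitochondrial transcripts varied most. The variance over mean of mt-Co3 was 12.2 in the library labelled DEHP_MLT and 10.4 in the library labelled MLT, where counting alone gives about 1. The 10 most variable genes were 8 mitochondrial ones, the nuclear RNA Malat1 and the unnamed gene model Gm15389. The whole set held 75 of 1651 genes with a ratio of at least 1.5 in both libraries, and the median gene, taking the lower library, stood at 1.02. Gm15389 had 1194 and 794 CPM in the low-growth oocytes and 55.2 and 24.7 CPM in barcodes under the germ threshold.

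In both libraries, shallow cells held more transcripts of several other cell types than deep ones. Cells under 30000 UMIs were 75 (22.5%) in the library labelled DEHP_MLT and 21 in the library labelled MLT. In the library labelled DEHP_MLT, stroma markers summed to 585 CPM in the shallow and 217 CPM in the deep cells, and erythroid markers to 14294 and 7202 CPM. In the library labelled MLT, stroma markers summed to 384 (312 to 468) CPM in the shallow and 269.8 (255 to 285) CPM in the deep cells. Endothelial markers of that library summed to 82.3 (50.9 to 126) and 35.8 (30.6 to 41.6) CPM, and perivascular markers to 78.3 (47.9 to 121) and 32.9 (27.9 to 38.4) CPM. Its granulosa markers summed to 129 and 129 CPM and its erythroid markers to 380.0 (308 to 464) and 319 (303 to 336) CPM, with overlapping intervals. Its surface epithelium, immune and neutrophil markers also had overlapping intervals. In the library labelled DEHP_MLT, Ooep had 831 and 841 CPM and Zp2 149.6 and 152 CPM in shallow and deep cells. Zp1 had 61.5 (48.4 to 76.9) and 48.6 (45.8 to 51.4) CPM there, and the Zp3, Npm2 and Gdf9 sum 219 and 195 CPM. In the library labelled MLT, Zp1 had 27.4 (11.0 to 56.5) and 45.3 (39.4 to 51.8) CPM. Kit, the receptor through which granulosa cells act on the oocyte, had 100.3 and 186 CPM in the library labelled DEHP_MLT. What part depth has in these levels was not tested.

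Between the libraries, 28 of 3744 genes (0.748%) were higher by 1.5-fold or more in the low-growth oocytes of the library labelled DEHP_MLT, and 158 (4.22%) lower by that much. The median log2 ratio was -0.09. With the median of the gene ratios set to 0, the counts were 40 higher and 91 lower, so the balance between the directions depends on the scale. Without the 4 highest barcodes of each gene, 39 genes were higher and 87 lower by that fold. For all of these genes the Poisson intervals were apart. Haemoglobin genes (Hba-a1, Hba-a2, Hbb-bs and Hbb-bt) were 4 of the 28, in step with the erythroid markers above, and Hbb-bs had a UMI in 333 of 333 cells, with a median of 2360 CPM per cell, against 68 of 70 cells and 167 CPM.

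**Figure D3:**
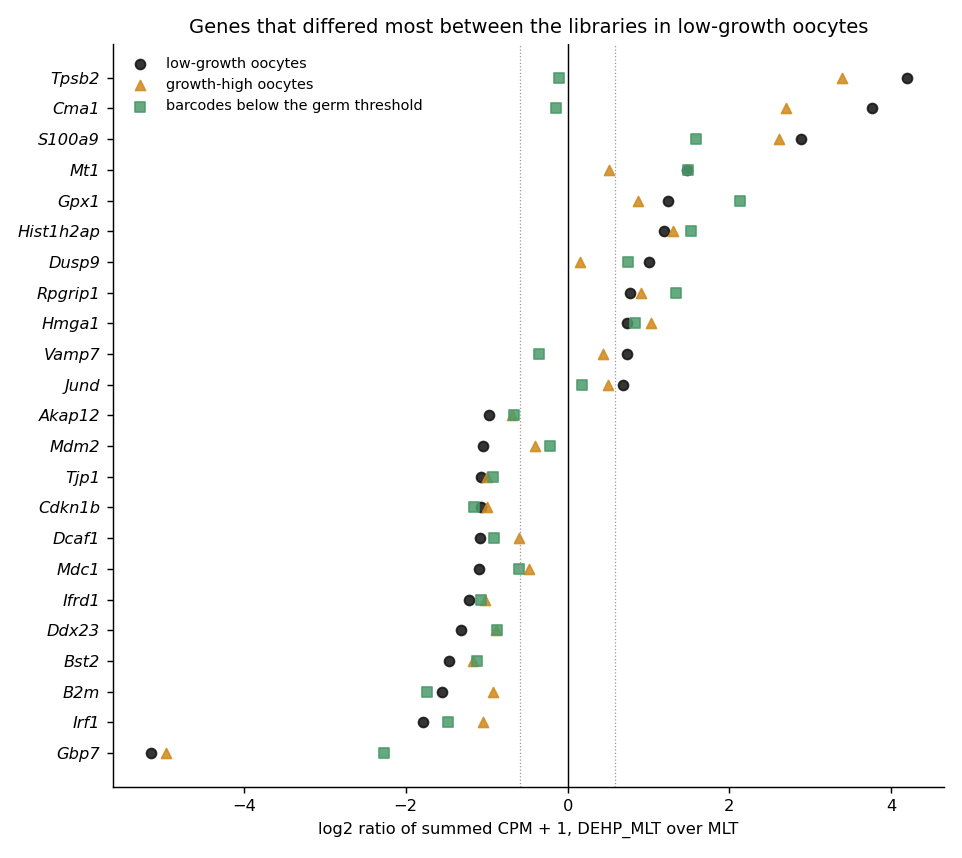
Log2 ratio of summed CPM, DEHP_MLT over MLT with 1 CPM added, of 23 genes named between the libraries, in low-growth oocytes (black circles), growth-high oocytes (orange triangles) and barcodes below the germ threshold (green squares); dotted lines mark 1.5-fold. Tjp1 and Cdkn1b have nearly the same ratio in all 3 kinds of barcodes, while Tpsb2 and Cma1, at 4.19 and 3.76 in low-growth oocytes, lie near 0 below the germ threshold.

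The genes farthest apart between the libraries fall into those carried by a few barcodes and those seen across the cells. The plot of the log2 ratios in 3 kinds of barcodes shows which of them were shared with other cells. Tpsb2, a mast cell tryptase gene, had 53.7 CPM (50.9 to 56.7) in the library labelled DEHP_MLT and 2.0 CPM (0.959 to 3.68) in the library labelled MLT. Of its UMIs in the library labelled DEHP_MLT, 82.6% lay in 4 barcodes, and without the 4 highest barcodes the log2 ratio was 2.50 instead of 4.19. Cma1, the mast cell chymase gene, had 74.7 and 4.60 CPM, with 75.3% of its UMIs in 4 barcodes. The highest of these barcodes held 418 Tpsb2, 588 Cma1, 157 Cpa3 and 486 Mcpt4 UMIs, all genes of mast cell granules, beside 27 Dazl, 79 Sycp3 and 51 Figla UMIs in 63192.

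Gbp7, an interferon-induced GTPase gene, was the reverse case, with 1.09 CPM (0.716 to 1.58) in the library labelled DEHP_MLT and 73.2 CPM (65.9 to 81.0) in the library labelled MLT. In the library labelled MLT, 82.8% of its UMIs lay in 4 barcodes, and without the 4 highest the log2 ratio was -3.06 instead of -5.15. The highest 2 held 117 and 115 Gbp7 UMIs, with 53 and 44 of Irf1, 42 and 36 of B2m and 41 and 28 of Bst2, the genes of an interferon-induced transcription factor, the class I light chain and tetherin. Irf1 had 15.4 and 55.8 CPM (log2 -1.79, and -0.95 without the 4 highest barcodes). B2m had 26.2 and 78.6 CPM (-1.55, and -1.24), with a median per cell of 19.6 and 58.2 CPM, so the B2m difference was not limited to the highest cells. In all remaining barcodes of the libraries labelled DEHP_MLT and MLT, Gbp7 had 25.2 and 148 CPM, Irf1 28.2 and 83.4 CPM and Bst2 227 and 546 CPM. These genes were thus lower in the library labelled DEHP_MLT there too.

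Mdm2, the ubiquitin ligase of p53 and itself a p53 target, turned on 1 barcode. It had 64.1 and 133 CPM in the libraries labelled DEHP_MLT and MLT (log2 -1.04), but 282 of its 665 UMIs in the library labelled MLT came from 1 cell of 53682 UMIs. Without the highest barcode of each library the ratio was -0.28. That cell also held 72 UMIs of Cdkn1a and 36 of Pmaip1, both p53 targets, beside 41 Dazl, 22 Sycp3 and 11 Figla UMIs. All 70 cells of the library labelled MLT together held 47 Pmaip1 UMIs.

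**Figure D4:**
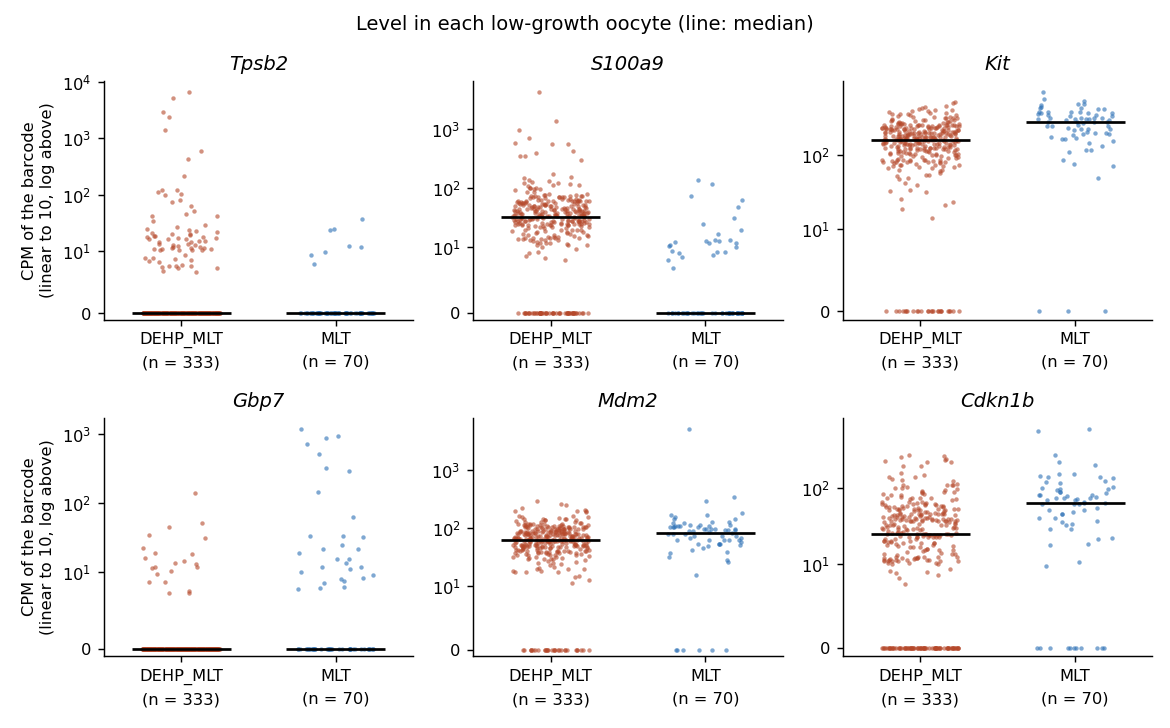
CPM in each low-growth oocyte (1 point per cell, axis linear to 10 and logarithmic above) for 6 genes that differed between the libraries, with the library labelled DEHP_MLT left of the library labelled MLT; the line is the median over cells. A few cells carry most of Tpsb2 and Gbp7, 1 cell stands far above the rest in Mdm2, and S100a9, Kit and Cdkn1b are shifted over most cells.

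Other genes differed over the cells, as the plot of values per cell shows. S100a9, a calcium-binding protein of neutrophils, had 54.9 CPM in the library labelled DEHP_MLT and 6.6 CPM in the library labelled MLT, with a UMI in 277 of 333 and 27 of 70 cells. In barcodes under the germ threshold of the same libraries it had 569.6 and 189.6 CPM, so the oocytes held far less of it than the surrounding barcodes. Of the S100a9 UMIs in the low-growth oocytes of the library labelled DEHP_MLT, 382 lay in 1 barcode of 91022 UMIs. The log2 ratio of S100a9, 2.88, lay between 2.37 and 3.22 over the 16 alternatives, which include leaving out the highest barcodes. Mt1, a metal-binding metallothionein gene, had 82.7 and 29.0 CPM, with medians per cell of 55.2 and 23.7 CPM. Gpx1, a glutathione peroxidase gene, had 106 and 44.6 CPM. Hist1h2ap (385 and 169 CPM), Dusp9 (60.6 and 29.8), Rpgrip1 (68.1 and 39.6), Hmga1 (91.1 and 54.6), Vamp7 (76.9 and 46.0) and Jund (129 and 79.8) were the others of the highest ratios.

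Among the genes lower in the library labelled DEHP_MLT, Mdc1, a scaffold at DNA breaks, had 47.7 and 103 CPM and medians per cell of 37.3 and 96.1 CPM. Cdkn1b, the cell cycle inhibitor p27 that restrains primordial follicle activation in mice, had 32 and 68.6 CPM and medians per cell of 24.9 and 63.6 CPM. Kit had 182 and 292 CPM, a log2 ratio of -0.68, and medians per cell of 158 and 277 CPM. Ddx23 (38.3 and 97.1 CPM), Ifrd1 (36.4 and 85.7), Dcaf1 (25.5 and 55.4), Tjp1 (51.8 and 109.7), Akap12 (156 and 306) and Bst2 (21.2 and 60.4) complete the genes with the lowest ratios.

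Several of these differences were also present outside the low-growth oocytes. Hist1h2ap had 435 and 176 CPM in growth-high oocytes and 919 and 317 CPM in barcodes under the germ threshold, in the libraries labelled DEHP_MLT and MLT. In the same order, B2m had 45.0 and 86.0 CPM and 179 and 599 CPM. Cdkn1b had 34.0 and 69.0 CPM in growth-high oocytes and 101 and 228 CPM under the germ threshold. The direction was the same in all 3 kinds of barcodes for these 3 genes, which all come from the same 2 libraries. Mdm2 had 56.8 and 75.5 CPM and 31 and 36.3 CPM, both differences under 1.5-fold.

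**Figure D5:**
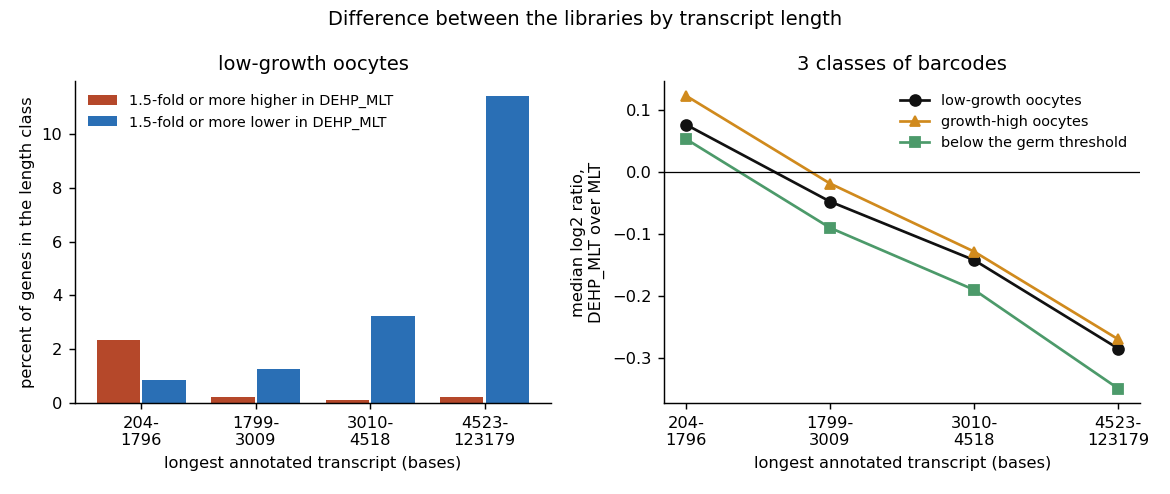
Genes in 4 classes of nearly equal size by the length of their longest annotated transcript (bases, horizontal axes). Left, percent of each class at least 1.5-fold higher (red) or lower (blue) in low-growth oocytes of the library labelled DEHP_MLT; right, median log2 ratio, DEHP_MLT over MLT, in low-growth oocytes, growth-high oocytes and barcodes below the germ threshold. Longer classes have lower medians in all 3 kinds of barcodes.

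The direction of the differences went with transcript length, as the plot by length class shows. Of the genes compared, 99.5% had a length in the GENCODE vM21 annotation, taken as the longest transcript of the symbol, with a median of 3010 bases. The 28 genes higher in the library labelled DEHP_MLT had a median of 895 bases and the 158 lower ones 5688 bases. In 4 classes of nearly equal size, from the shortest transcripts to the longest, the share at least 1.5-fold higher was 2.36%, 0.215%, 0.107% and 0.215%, and the share at least 1.5-fold lower was 0.858%, 1.29%, 3.22% and 11.4%. The median log2 ratio of the classes was 0.08, -0.05, -0.14 and -0.28 in low-growth oocytes. It was 0.12, -0.02, -0.13 and -0.27 in growth-high oocytes and 0.05, -0.09, -0.19 and -0.35 in barcodes under the germ threshold. The 28 genes had a median log2 ratio of 0.79 in low-growth oocytes and of 0.88 and 0.82 in the other 2 kinds of barcodes, and the 158 genes -0.69, against -0.64 and -0.67. What part transcript length has in the difference of a single gene was not tested.

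Several gene groups of the oocyte held no gene past 1.5-fold between the libraries. Over all genes compared, 0.748% were higher and 4.22% lower, with a median of -0.09, so counts of 0 in lists of this size are near that background. Of 10 other zona and growth genes with at least 50 CPM, 0 were past 1.5-fold (median -0.10), and the same was so of 8 oocyte transcription factors (0.12), 6 synaptonemal complex genes (-0.07), 12 piRNA pathway genes (-0.25), 4 DNA methylation genes (-0.40), 10 autophagy genes (-0.01) and 6 genes of BMP and TGF-beta signalling (-0.08). Of 11 dormancy genes, 2 were lower in the library labelled DEHP_MLT, Kit and Cdkn1b, and 0 higher, against the same background of 4.22% lower. Foxo3 had 98.8 and 87.7 CPM. None of the melatonin receptor genes reached 50 CPM in either library.

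DNA break repair and interferon genes were the lists with the largest share below. Of 7 genes of double-strand break repair, 4 were lower in the library labelled DEHP_MLT and 0 higher (median -0.63): Mdc1, Brca2 (77.9 and 129 CPM), Parp1 (162 and 255 CPM) and Rad50 (385 and 597 CPM). All 16 genes of the list, low ones included, summed to 1198 and 1678 CPM, with medians of 1176 and 1654 CPM per cell. The same 16 genes summed to 1167 and 1543 CPM in growth-high oocytes and to 674 and 679 CPM in all remaining barcodes. The repair difference was thus also present in growth-high oocytes. Of 6 interferon and class I genes, 4 were lower (Gbp7, Irf1, B2m and Bst2; median -1.51), and all 26 genes of the list summed to 377 and 814 CPM, with medians per cell of 338 and 545 CPM. Without the 2 highest cells of each library the sums were 375 and 633 CPM. The same 26 genes summed to 550 and 975 CPM in growth-high oocytes and to 1936 and 4875 CPM in all remaining barcodes. The interferon difference was thus also present outside the low-growth oocytes. The background share of 4.22% lower is over all genes compared, and was 11.4% in the class of longest transcripts.

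Antioxidant genes were the list with the largest number above. Of 15, 3 were higher by 1.5-fold or more in the library labelled DEHP_MLT and 0 lower (median 0.15): Mt1, Gpx1 and Prdx4 (342 and 213 CPM). Over all genes compared, 0.748% were higher by that fold, and 2.36% were in the class of shortest transcripts. Mt1 had 875 and 349.9 CPM and Gpx1 737 and 196 CPM in all remaining barcodes of the libraries labelled DEHP_MLT and MLT, so both differed there too. The erythroid markers, at 7554 and 322 CPM in the same oocytes, moved with this list, and their part in it was not tested. All 23 genes of the list summed to 3782 and 3155 CPM, with medians per cell of 3722 and 3150 CPM. Sod1, the cytosolic superoxide dismutase gene, had 976 and 718 CPM, a log2 ratio of 0.44. In other lists, Fmr1nb (83.0 and 54.0 CPM), Tpi1 of glycolysis (80.0 and 52.2 CPM), Jund and Hist1h2ap were higher, and Tex15 (455 and 703 CPM), Oas1c, Oas1e, Mki67, Hspa5 (125 and 188 CPM), Hist1h1e and Ifitm3 (37.0 and 64.0 CPM) lower.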

How the data were processed

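The authors deposited whole-number UMI counts per gene and barcode, without normalization, in a separate table for each library. Cell Ranger, Seurat 4.2.0 and the build mm9 are named in the submitters' processing notes, with no version of Cell Ranger. The 21018 genes found in both tables were used. Counts of the selected barcodes were summed per library and given as CPM, and log2 ratios were taken after adding 1 CPM, over genes with at least 50 CPM in either group. Depth was 117355739 and 77849673 UMIs over 4819 and 4367 barcodes with at least 5000 UMIs in the libraries labelled DEHP_MLT and MLT. Shares carry Clopper-Pearson and CPM exact Poisson 95% intervals. Calls are a 1.5-fold difference, with no test.

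Genes were named by rank: the 12 highest and 12 lowest ratios between libraries with intervals apart, the 10 highest and 10 lowest against growth-high oocytes in both libraries, the 6 each way against Tsga8 or Tex101 germ cells, the 10 most variable, and the extremes of 23 gene lists. The ranking between libraries left out unnamed gene models and the haemoglobin, ribosomal protein and mitochondrial genes. Some genes the rules name are not reported here by name and stand only in the counts. The cells, lists and rules were chosen with earlier results of these data known. No doublet caller was run. The limit on Foxl2 and Kctd14 and an alternative without cells rich in other markers were used instead. Those other markers were of stroma, endothelium, perivascular cells, surface epithelium, and macrophages and other immune cells. Erythroid and neutrophil markers and mast cell protease genes were not among them, so that alternative did not screen for barcodes rich in those. Scripts were checked on simulated data. Promoters are RefSeq's on GRCm38.p6, matched by symbol for 4 of 6 genes looked up. Python 3.11.15, NumPy 2.4.6, pandas 2.3.3, SciPy 1.17.1 and Matplotlib 3.10.9 were used. Alternatives changed the thresholds, depth floor, scaling, filter, pseudocount and the highest barcodes.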

Additional observations from a re-analysis of the deposited data

How the results depend on the processing

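Each group is 1 library, so no alternative measures biological spread. No paired analysis was possible because each group is 1 library. The log2 ratio of the share among barcodes, 2.11, was 2.07 with every barcode thinned to 5000 UMIs, 2.27 and 1.87 with the zona and growth limit at 4 and 8, 1.93 with the germ threshold at 20, 2.31 without cells rich in other markers and 1.34 among barcodes of at least 30000 UMIs. The ratio of the share among oocytes, 0.29, was 0.45 and 0.046 with the limit at 4 and 8, 0.33 with the germ threshold at 20 and 0.25 at 30000 UMIs or more. The 28 genes higher between libraries became 75 at 10 CPM, 397 with no filter and 44 with totals without mitochondrial, ribosomal protein and haemoglobin genes. The 158 lower genes became 91 on the median-of-ratios scale, 560 at 10 CPM, 1401 with no filter and 87 without the 4 highest barcodes of each gene. The 15 genes higher than in growth-high oocytes became 6 thinned, 6 at a limit of 4, 33 at a germ threshold of 20, 9 on the median-of-ratios scale, 8 with 5 CPM added, 58 at 10 CPM, 148 with no filter, 23 with the reduced totals and 33 without the 4 highest barcodes. The 58 lower ones became 201 at 10 CPM and 485 with no filter. The median of the late-meiotic list between libraries, 0.61 from 1 gene, was -0.53 at 10 CPM, -0.54 with no filter and -0.47 with the reduced totals. The cause of these shifts was not tested beyond the fewer or more genes and cells each setting leaves. Of the 24 genes ranked between libraries, Mdm2 fell under 1.5-fold in 4 of 16 alternatives, Vamp7 in 4 and Jund in 2, and the other 21 stayed past it. The alternatives without the highest barcodes or shallow barcodes were chosen after the data were seen.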

Other observations

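Mast cell, neutrophil and interferon transcripts reached single low-growth oocyte barcodes very unevenly. The 4 barcodes richest in Tpsb2 in the library labelled DEHP_MLT held 63192, 71536, 63770 and 90674 UMIs, and Tpsb2 gave 418, 370, 188 and 127 of them. In barcodes under the germ threshold, Tpsb2 had 48.2 and 51.8 CPM in the libraries labelled DEHP_MLT and MLT, so the libraries were close to level outside the oocytes. In the library labelled DEHP_MLT, 1 barcode of 91022 UMIs held 375 S100a8 and 382 S100a9 UMIs. No value decides between a droplet with 2 cells and a transcript of the oocyte, and this was not tested.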
